A study of Mus musculus with 12 samples.

Results

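The Hox genes were followed across the cell types of the superior mesenteric ganglion (SMG), the sympathetic ganglion in which the tumors of Th-MYCN mice arise. The members were all features whose symbol consists of Hox, a cluster letter from a to d and a number. They were 39 of the 32289 features counted, and the rule used no measured value. Droplet-based scRNA-seq was available for 3 groups of 129+Ter/SvJcl mice, namely 1 wild-type (WT) mouse at 3 weeks of age, 10 hemizygous Th-MYCN+/- mice at 3 weeks and 1 Th-MYCN+/- mouse at 6 weeks. In the Th-MYCN+/- mice, the rat tyrosine hydroxylase (Th) promoter drives human MYCN in sympathetic cells. The 6-week-old mouse had been picked because its ganglion carried a visible tumor, and each library came from 1 animal. Only the 10 Th-MYCN+/- mice aged 3 weeks have replicates, so the tests compare cell classes within these mice, and the WT and the older mouse are given as values without a test.

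Hox genes encode homeodomain transcription factors and lie in 4 chromosomal clusters, HoxA to HoxD. Genes at corresponding places of the clusters share a paralog number. In the embryo, low-numbered genes are used from the hindbrain backward and high-numbered genes only toward the tail, in the order in which they lie on the chromosome. The combination that a cell retains is therefore read as a record of its position along the body axis, and neurons and glia derived from the neural crest, vessels and connective tissue each carry such a record.

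The annotation (GRCm38) gave a position for all 39 members. HoxA lies on chromosome 6 between 52155590 and 52260880 on the minus strand and HoxB on chromosome 11 between 96194316 and 96368256 on the plus strand. HoxC lies on chromosome 15 between 102921103 and 103036852 and HoxD on chromosome 2 between 74668310 and 74765142, both on the plus strand. Promoter windows from RefSeq (GRCm38.p6) were at hand for 22 members. The 250 bases before the start are shown for 4 genes from the clusters that gave most Hox UMIs in a class: Hoxc4 of HoxC for the neural classes, Hoxb4 and Hoxb8 of HoxB for Schwann-like cells and Hoxd9 of HoxD for endothelial-like cells. Hoxb8 was also detected in endothelial-like cells. The starts are those of RefSeq. That of Hoxc4 lies inside the gene as the annotation gives it (103018934 to 103036852), and the annotated start of Hoxd9 (74697727) lies inside the window shown. Capitals mark CG dinucleotides, the sites of DNA methylation, which number 8, 14, 12 and 13 in the same order.
Hoxc4, chr15:103034145-103034394, plus strand: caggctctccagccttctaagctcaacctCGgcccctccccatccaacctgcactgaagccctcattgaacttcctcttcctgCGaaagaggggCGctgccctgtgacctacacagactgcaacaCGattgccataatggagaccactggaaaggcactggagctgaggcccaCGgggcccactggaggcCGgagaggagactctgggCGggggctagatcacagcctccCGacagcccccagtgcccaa
Hoxb4, chr11:96318017-96318266, plus strand: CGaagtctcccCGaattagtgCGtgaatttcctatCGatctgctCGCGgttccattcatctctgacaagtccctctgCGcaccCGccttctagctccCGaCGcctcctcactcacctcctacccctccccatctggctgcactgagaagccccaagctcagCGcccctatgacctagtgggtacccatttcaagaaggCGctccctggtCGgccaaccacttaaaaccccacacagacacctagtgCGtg
Hoxb8, chr11:96281655-96281904, plus strand: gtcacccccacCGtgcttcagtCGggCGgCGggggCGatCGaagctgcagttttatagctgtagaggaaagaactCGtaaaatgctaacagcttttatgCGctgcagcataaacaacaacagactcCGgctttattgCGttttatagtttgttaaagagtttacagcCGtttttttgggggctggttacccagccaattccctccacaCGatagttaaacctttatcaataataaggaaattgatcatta
Hoxd9, chr2:74697513-74697762, plus strand: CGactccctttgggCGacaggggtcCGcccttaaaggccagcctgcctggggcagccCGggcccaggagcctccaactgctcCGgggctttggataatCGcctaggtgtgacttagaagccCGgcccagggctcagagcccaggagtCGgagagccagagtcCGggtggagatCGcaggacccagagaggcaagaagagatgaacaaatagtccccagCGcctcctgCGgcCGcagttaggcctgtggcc
The 24 Hox windows held a median of 12.5 CG dinucleotides in these 250 bases, where all 32851 windows held a median of 6. The letters TGATNNAT, which a Hox protein and a TALE partner bind together, were searched on both strands, and overlapping matches were counted. They occurred in 4 of the 24 Hox windows and in 7.68% of all windows. Of the windows shown, that of Hoxb8 held 1 match and those of Hoxc4, Hoxb4 and Hoxd9 held 0.

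The deposited values are counts of unique molecular identifiers (UMIs), each standing for 1 captured RNA molecule. The 12 libraries held between 1147772 and 6388766 UMIs, and 11959 cells were called and passed the filters. Cells were clustered without the Hox genes, so that the classes were defined without them, and named from marker genes, and each named cluster passed at least 7 of the markers listed for its class. The classes comprised 2934 neuroblast-like and 2698 ganglion-like cells, further 2885 Schwann-like, 526 endothelial-like, 168 myofibroblast-like, 141 fibroblast-like, 242 macrophage-like and 43 NKT-like cells, and 2322 cells stayed unnamed. The transgene had 0 UMIs in the WT library, a level of 8.19 CPM (UMIs per 1000000) in Th-MYCN+/- mouse 2 and 63.6 to 428 in the other 9 Th-MYCN+/- mice aged 3 weeks. In mouse 2, only 38.1% of UMIs lay in cells (61.1% to 87.1% in the other libraries), with 29 neuroblast-like cells (21720 UMIs) and 5 Schwann-like cells (2777 UMIs). Libraries shared 94 cell barcodes over 66 pairs, where 87.9 would be shared by chance.

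Over all cells, 28 members had a UMI in cells and 11 had none. Hoxa6, Hoxa11, Hoxa13, Hoxb1, Hoxb13, Hoxc11, Hoxc12, Hoxc13, Hoxd11, Hoxd12 and Hoxd13 had none, which allows a level of up to 3 UMIs among the 31071243 UMIs of all cells. Of the 13106 Hox UMIs, 10834 came from HoxC, 1124 from HoxD, 858 from HoxB and 290 from HoxA. The 13 members with at least 100 UMIs were Hoxc4 (4099), Hoxc8 (2874), Hoxc9 (1828), Hoxc6 (1632), Hoxc5 (397), Hoxd9 (377), Hoxd4 (361), Hoxd8 (294), Hoxb2 (272), Hoxb7 (237), Hoxa7 (190), Hoxb8 (106) and Hoxb4 (100). The other 15 had between 3 and 60 UMIs. Levels are expressed as CPM, which scales the UMI count of a gene to 1000000 UMIs of its class. The UMIs stem from the 3' ends of transcripts and are not scaled by length. Hoxd3 and Hoxd4 share 62.3% and 52.3% of their exonic bases with each other or another gene of the same strand, so that their counts are uncertain. The sources used here do not say whether the counting used strand, and 27.3% of the exonic bases of Hoxb2, 52.9% of Hoxb3 and 20.4% of Hoxa7 lie opposite an antisense RNA, from which their reads cannot then be told apart.

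The classes used different clusters. In the 10 Th-MYCN+/- mice aged 3 weeks, HoxC gave 90.5% of the 6431 Hox UMIs of neuroblast-like cells and 95.4% of the 2863 of ganglion-like cells. HoxB gave 69.6% of the 414 of Schwann-like cells, and HoxD 49.9% of the 625 of endothelial-like cells. The exact Clopper-Pearson 95% intervals of these shares were 89.8% to 91.2%, 94.6% to 96.1%, 64.9% to 74.0% and 45.9% to 53.9% and cover counting error only. Over mice with at least 10 Hox UMIs in the class, the share of HoxC ranged from 85.3% to 98.5% in neuroblast-like cells (9 mice) and from 92.8% to 98.4% in ganglion-like cells (10 mice). That of HoxB ranged from 50% to 77.4% in Schwann-like cells (9 mice) and that of HoxD from 18.8% to 57.9% in endothelial-like cells (10 mice). HoxB gave a further 36.6% of the Hox UMIs of endothelial-like cells, with 28.2% to 62.5% per mouse, which overlaps the share in Schwann-like cells, and its summed level was 351 CPM there against 121 CPM in Schwann-like cells. The share of HoxC did not overlap between either neural class and the Schwann-like cells, where it was 5.88% to 31.2%, or the endothelial-like cells, where it was 0% to 10.0%.

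**Figure D1:**
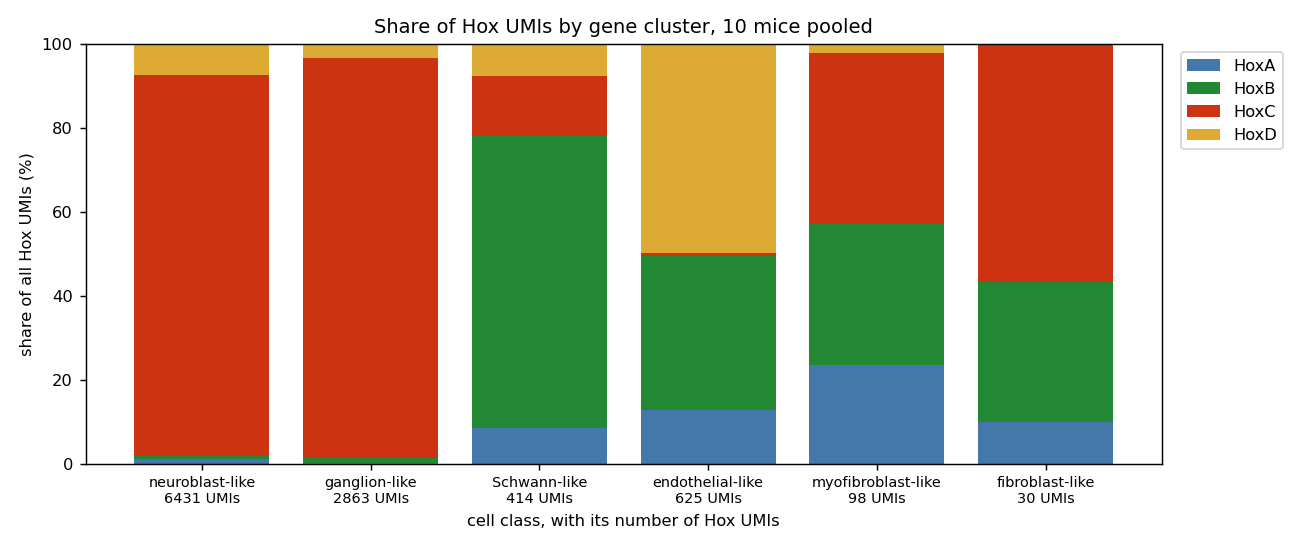
Share of all Hox UMIs (%) that came from HoxA, HoxB, HoxC and HoxD in 6 cell classes, pooled over the 10 Th-MYCN+/- mice aged 3 weeks, with the number of Hox UMIs of each class under its bar. HoxC fills 90.5% and 95.4% of the bars of neuroblast-like and ganglion-like cells, HoxB 69.6% of that of Schwann-like cells and HoxD 49.9% of that of endothelial-like cells.

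Macrophage-like cells, whose cluster also passed 5 of 7 B cell markers, give the background of these values. They held 3 Hox UMIs among 341796, 1 each of Hoxc6, Hoxc8 and Hoxd8, and NKT-like cells held 0 among 31582. RNA in droplets without a cell contained HoxC at 273 CPM, Hoxc4 at 88.2 CPM and Hoxc9 at 80.9 CPM, and Hoxb7 at 8.29 CPM. The share of free RNA in cells, estimated from 3 genes of ganglion cells in the other cells, was 0% to 5.36% per library, and the highest share was that of mouse 2.

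**Figure D2:**
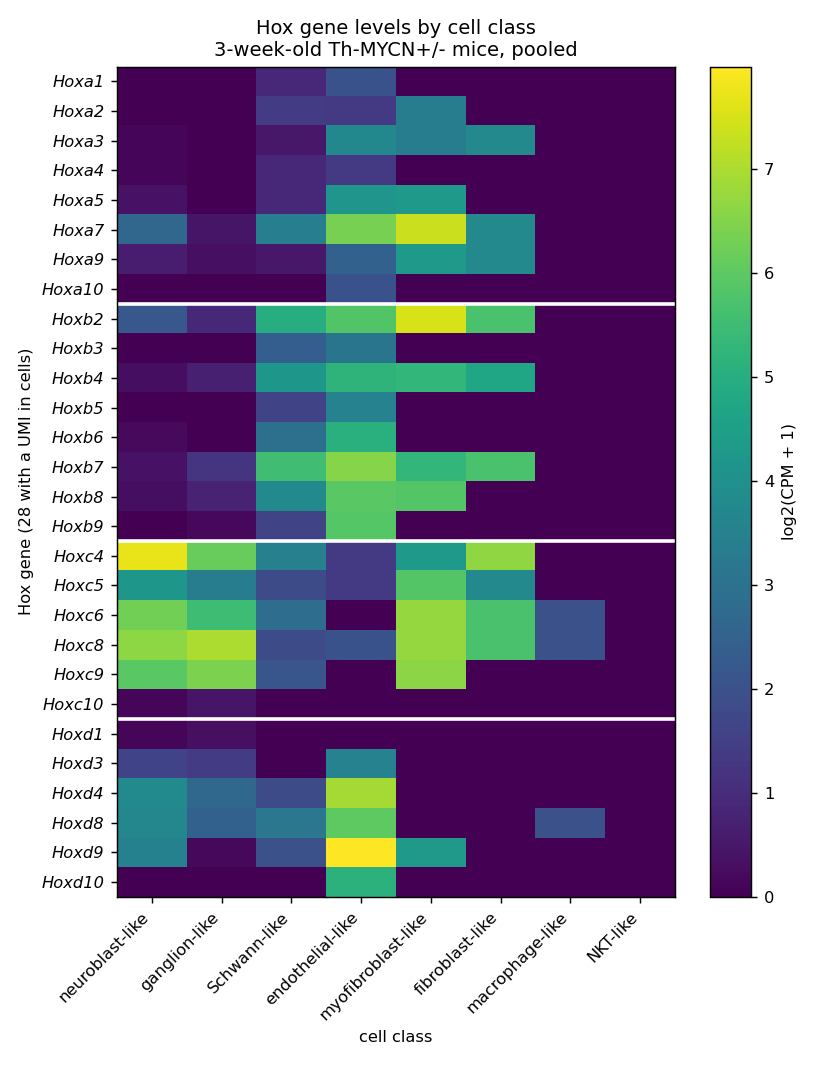
Level of the 28 Hox genes with a UMI (rows, grouped by cluster from HoxA to HoxD) in 8 cell classes (columns), as log2(CPM + 1) over the pooled Th-MYCN+/- mice aged 3 weeks. HoxC genes are high in the neural classes, HoxB genes in Schwann-like and endothelial-like cells, and Hoxd10 has a level above 0 only in the column of endothelial-like cells. In myofibroblast-like cells, HoxC sums to 380 CPM and HoxB to 314 CPM.

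In neuroblast-like cells, the HoxC genes of paralog groups 4 to 9 were detected together, and the next gene toward the tail end of the cluster, Hoxc10, was nearly silent. Hoxc4, a gene of the neck level of the spinal cord, lay between 68.4 and 308 CPM in the 10 mice with a median of 203 CPM. Hoxc5 ranged from 0 to 28.8 CPM with a median of 17.6 CPM, and Hoxc6, known from the forelimb level, from 0 to 116 CPM with a median of 70.6 CPM. Hoxc8, which acts in motor neurons of the lower neck and upper trunk, ranged from 0 to 168 CPM with a median of 90.8 CPM. Hoxc9, which sets the thoracic identity of motor neurons, ranged from 32.8 to 79.5 CPM with a median of 63.2 CPM. The values of 0 were those of mouse 2, and Hoxc4 and Hoxc9 were detected in all 10 mice. Hoxc10 had 4 UMIs in all cells of the 12 mice.

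In ganglion-like cells, the same HoxC genes were detected at other proportions. Hoxc8 ranged from 68.5 to 186 CPM with a median of 120 CPM, and Hoxc9 from 54.0 to 151 CPM with a median of 66.5 CPM. Hoxc4 ranged from 30.1 to 181 CPM with a median of 110 CPM, Hoxc6 from 9.21 to 64.6 CPM with a median of 46.4 CPM and Hoxc5 from 0 to 24.5 CPM with a median of 9.60 CPM. All but Hoxc5, which was missing in 1 mouse, had UMIs in all 10 mice.

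**Figure D3:**
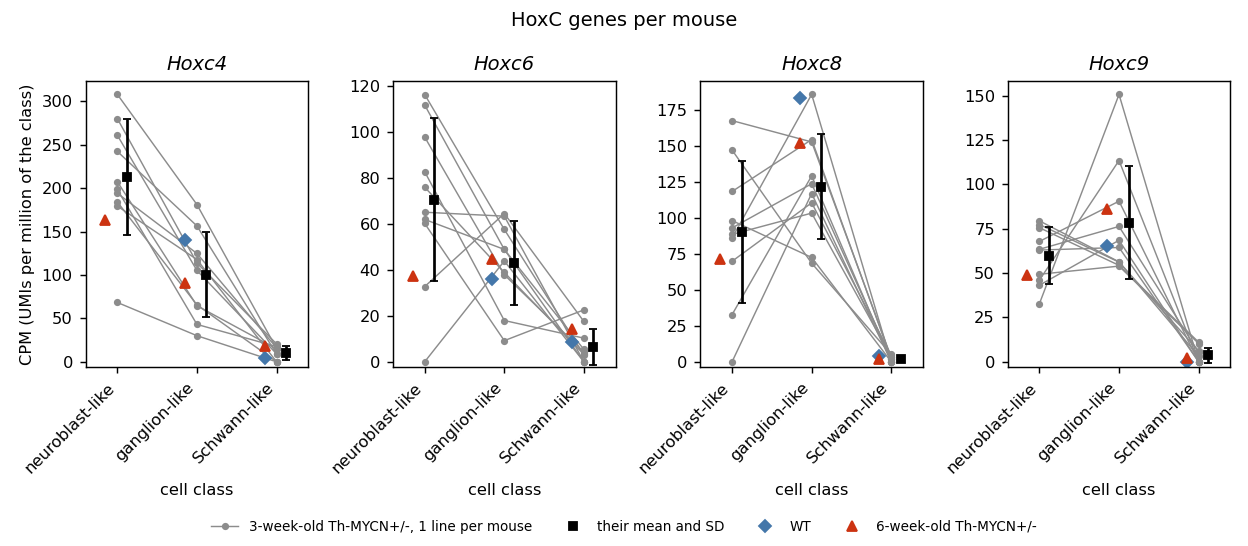
CPM of Hoxc4, Hoxc6, Hoxc8 and Hoxc9 in neuroblast-like, ganglion-like and Schwann-like cells. Each grey line is 1 of the 10 Th-MYCN+/- mice aged 3 weeks, black squares are their mean with the SD, blue diamonds the WT mouse (not drawn for its 35 neuroblast-like cells) and red triangles the 6-week-old mouse. Hoxc4 falls along every grey line from neuroblast-like to ganglion-like cells, and all 4 genes lie near 0 in Schwann-like cells.

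The comparison of neuroblast-like with ganglion-like cells, the mature sympathetic neurons beside them, was paired within 10 mice, and 5 members passed the filter on low counts (Hoxc4, Hoxc5, Hoxc6, Hoxc8 and Hoxc9). In this fit, 35.8% of the 7013 genes tested were called higher in neuroblast-like cells by the quasi-likelihood test of edgeR at a Benjamini-Hochberg FDR of 0.05, so that 3 of 5 is to be read against a high background. Hoxc4 was 2.21-fold higher in neuroblast-like cells (log2 fold change 1.14 ± 0.17 SE, adjusted p = 4.16e-06) and was higher in 10 of 10 mice, although the ranges of both classes overlapped. Hoxc6 was 1.83-fold higher (0.87 ± 0.25, adjusted p = 0.00404, 8 of 10 mice) and Hoxc5 2.15-fold higher (1.10 ± 0.37, adjusted p = 0.0113, 6 of 10 mice). The differences of Hoxc8 (−0.33 ± 0.23, adjusted p = 0.204) and Hoxc9 (−0.21 ± 0.22, adjusted p = 0.41) did not pass the test, and both were lower in neuroblast-like cells in 7 of 10 mice. Among the UMIs of Hoxc4 and Hoxc8 together, Hoxc4 took 42.4% to 100% in neuroblast-like cells (median 68.2%) and 19.5% to 72.5% in ganglion-like cells (median 39.4%), and its share was higher in neuroblast-like cells in 9 of 10 mice. The ranges overlapped, and the exception was mouse 7. No minimum of UMIs was set for this share. The 100% was that of mouse 2, with 4 UMIs of Hoxc4 and 0 of Hoxc8, and the next highest share was 85.8%. In ganglion-like cells of mouse 1, the share rested on 4 UMIs of Hoxc4 and 12 of Hoxc8.

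Most members were too sparse for the filter. Without it, 22 members were tested, of which 8 were called higher and 0 lower, where 20.9% of the 19125 genes tested were called higher. Besides Hoxc4, Hoxc5 and Hoxc6, these were Hoxd9, Hoxd8, Hoxd4, Hoxa7 and Hoxb6. The share of all genes called lower is not given for this fit, so that 0 lower is not read as a result. Hoxd9, known from the trunk and limbs, had 132 UMIs in neuroblast-like cells of 8 mice and 1 UMI in ganglion-like cells, with per-mouse levels of 0 to 35.6 CPM (median 7.07 CPM) against 0 to 0.386 CPM. The ratio of the pooled levels was 85.6 with a counting interval of 15.1 to 3406 (exact conditional 95% interval), and the fit, in which 1 UMI leaves the size uncertain, gave a fold of 27.6 (log2 fold change 4.79 ± 0.68, adjusted p = 1.71e-11). Hoxd8 ranged from 0 to 17.5 CPM (median 10.3 CPM) against 0 to 9.21 CPM (median 4.2 CPM), with a log2 fold change of 1.14 ± 0.37 (adjusted p = 0.00601, 7 of 10 mice). Hoxd4 had a log2 fold change of 0.94 ± 0.35 (adjusted p = 0.0188, 6 of 10 mice). Hoxa7 had 65 UMIs against 3, a pooled ratio of 14 with a counting interval of 4.60 to 69.9, and a fold of 6.28 in the fit (log2 fold change 2.65 ± 0.80, adjusted p = 0.00328, 6 of 10 mice). Mouse 8 gave 42 of the 65 UMIs, and the pooled ratio without it was 5.73 (23 UMIs against 3). The level of Hoxa7 in neuroblast-like cells reached 22.3 CPM in 1 mouse with a median of 0.891 CPM. The call of Hoxb6 rested on 2 UMIs in mouse 2.

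Detection per cell was compared after thinning each cell to 500 UMIs, since neuroblast-like cells were deeper (median 4409 UMIs) than ganglion-like (1168), Schwann-like (985.5) and endothelial-like cells (1123.5). At this depth, any HoxC gene was seen in 18.9% of 2582 neuroblast-like cells (95% interval 17.4% to 20.5%) and in 15.4% of 2034 ganglion-like cells (13.8% to 17.0%). These shares pool the cells of 10 mice, of which mouse 2 gave 1364 of the 2034 ganglion-like cells. Over mice with at least 20 such cells, the share was 11.6% to 24.8% in neuroblast-like cells (median 20.6%, 9 mice) and 8.97% to 22.1% in ganglion-like cells (median 12.2%, 8 mice). The ranges overlapped, and the share was higher in neuroblast-like cells in 6 of the 7 mice with enough cells of both. Any HoxC gene was seen in 1.10% of 1817 Schwann-like cells, with 0% to 2.46% per mouse (9 mice). It was seen in 0 of 301 endothelial-like cells, where 3 counts would be 0.997% and the exact 95% upper limit is 1.22%, a limit on cells with a UMI at this depth and not on cells that express the genes. In macrophage-like cells, which give the background, it was seen in 0 of 174. Without thinning, the shares were 74.8%, 38.6% and 2.41% in the first 3 classes. Thinning left out the cells with fewer than 500 UMIs, and 2582 of 2650, 2034 of 2464, 1817 of 2200 and 301 of 428 cells remained. Of the 2650 neuroblast-like cells at full depth, 1981 had a HoxC UMI, 1073 had UMIs of at least 2 HoxC genes and 460 of at least 3. Of the 2464 ganglion-like cells, 950 had a HoxC UMI, 362 had UMIs of at least 2 HoxC genes and 149 of at least 3. Single neural cells thus held UMIs of several HoxC genes at once. Of the 53 Schwann-like cells with a HoxC UMI, 4 had UMIs of 2 HoxC genes and 0 of 3.

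Schwann-like cells share the neural crest origin of the neurons but showed another combination. Hoxb7, a trunk gene of group 7, lay between 0 and 88.6 CPM with a median of 39.7 CPM, and Hoxb2, which acts in the hindbrain, between 0 and 49.0 CPM with a median of 26.0 CPM. Hoxb4, a gene of the hindbrain and neck level, lay between 0 and 27.6 CPM with a median of 13.7 CPM, and Hoxb8 between 0 and 26.3 CPM with a median of 10.3 CPM. Hoxb7 and Hoxb2 were detected in 9 of 10 mice, and the exception was mouse 2 with its 5 Schwann-like cells. Hoxb6 (16 UMIs), Hoxb3 (10), Hoxb5 (5) and Hoxb9 (5) were detected at pooled levels of 6.70, 4.19, 2.09 and 2.09 CPM. The 5 HoxC genes had between 6 and 24 UMIs, with pooled levels of 2.51 to 10.1 CPM. HoxB was also seen in more cells than HoxC. At 500 UMIs, 5.72% of Schwann-like cells had a HoxB UMI, against 0.271% of neuroblast-like and 0.197% of ganglion-like cells.

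Neuroblast-like cells were then compared with the glia of the same ganglion. In the fit with the filter, Hoxc4, Hoxc6 and Hoxc9 were tested and all 3 were higher in neuroblast-like cells. Of the 5503 genes tested, 36.7% were called higher. The 3 members had 2648, 967 and 760 UMIs in neuroblast-like cells, against 24, 15 and 8 in Schwann-like cells. They passed the filter only through neuroblast-like cells, which set their direction, so that 3 of 3 cannot be read against this background. Of all genes called in this fit, 52.6% were higher in neuroblast-like cells with edgeR and 62.8% with DESeq2. Hoxc4 was 15.8-fold higher (log2 fold change 3.98 ± 0.24, adjusted p = 1.56e-11) and Hoxc9 15.2-fold higher (3.93 ± 0.37, adjusted p = 1.46e-08), each in 10 of 10 mice and without overlap of the ranges. Hoxc6 was 9.90-fold higher (3.31 ± 0.39, adjusted p = 4.96e-07), in 9 of 10 mice. The highest level of Hoxc4 in Schwann-like cells was 20.6 CPM, below the lowest of 68.4 CPM in neuroblast-like cells.

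Without the filter, 26 members were tested in this comparison. Of these, 7 were called higher in neuroblast-like cells, where 24.2% of the 18647 genes tested were called higher, and 10 were called lower, where 18.5% were. Higher were Hoxc4, Hoxc5, Hoxc6, Hoxc8, Hoxc9, Hoxd4 and Hoxd9. Lower were Hoxb2 to Hoxb9, Hoxa2 and Hoxa7. Of these, Hoxb6 had a mean level over mice of 9.21 CPM in neuroblast-like and 7.10 CPM in Schwann-like cells, since 2 UMIs in the few neuroblast-like cells of mouse 2 came to 92.1 CPM. Hoxc8 was 39.6-fold higher (log2 fold change 5.31 ± 0.39, adjusted p = 2.37e-41, 9 of 10 mice). Hoxb7 had 4 UMIs in neuroblast-like and 107 in Schwann-like cells, with up to 2.27 CPM against up to 88.6 CPM, and fell by 6.34 ± 0.43 on the log2 scale (adjusted p = 2.84e-47, lower in 9 of 10 mice). Hoxb2 fell by 3.09 ± 0.36 (adjusted p = 3.41e-17, 9 of 10 mice). Hoxb3 had 0 UMIs in neuroblast-like cells and was at least 17.6-fold lower there, with a floor of 3 counts over the group. The ranges of all 8 HoxB genes overlapped, since each had 0 UMIs in the Schwann-like cells of at least 1 mouse. Without mouse 2, the filter let 5 members pass in place of 3, of which 4 were called higher and 1 lower.

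Ganglion-like cells were compared with the same Schwann-like cells. In the fit with the filter, Hoxc8 and Hoxc9 were the only members tested and both were higher in ganglion-like cells. Of the 3115 genes tested, 35.5% were called higher. Hoxc8 had 1038 UMIs against 6 and Hoxc9 688 against 8. Both passed the filter only through ganglion-like cells, so that their shared direction cannot be read against this background. Of all genes called, 51.6% were higher in ganglion-like cells with edgeR and 62.9% with DESeq2. Hoxc8 was 38.6-fold higher (log2 fold change 5.27 ± 0.33, adjusted p = 2.08e-14) and Hoxc9 17.2-fold higher (4.11 ± 0.39, adjusted p = 1.82e-10), in 10 of 10 mice and without overlap. Without the filter, 26 members were tested, of which 5 were called higher (19.9% of the 17942 genes tested were) and 11 lower (18.8% were). Higher were Hoxc4, Hoxc5, Hoxc6, Hoxc8 and Hoxc9. Lower were Hoxb2 to Hoxb9, Hoxa2, Hoxa7 and Hoxd9. Hoxd9 thus went the other way than in neuroblast-like cells, where it was higher (log2 fold change 1.68 ± 0.52, adjusted p = 0.00392). In ganglion-like cells it had 1 UMI against 7, a pooled ratio of 24.0 with a counting interval of 3.08 to 1079 (log2 fold change −3.27 ± 1.18, adjusted p = 0.0162). Hoxb7 had 11 UMIs against 107 and fell by 5.23 ± 0.43 on the log2 scale (adjusted p = 6.68e-32), and Hoxb2 had 7 UMIs against 72 and fell by 4.52 ± 0.47 (adjusted p = 1.24e-20), each lower in 9 of 10 mice. Both comparisons share the Schwann-like cells and are therefore not independent.

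**Figure D4:**
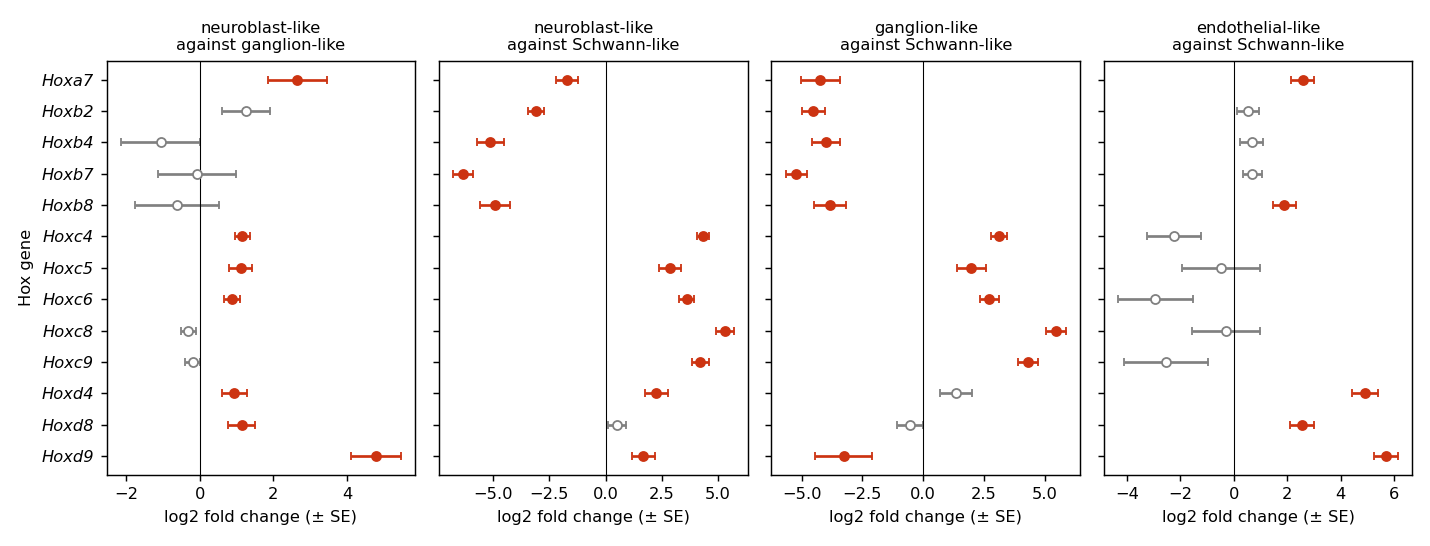
Log2 fold change with its SE (edgeR, no filter on low counts) of the 13 Hox genes with at least 100 UMIs in 4 paired comparisons of cell classes over 10 Th-MYCN+/- mice aged 3 weeks. Filled red points passed an FDR of 0.05 and open grey points did not. HoxC genes lie to the right and HoxB genes to the left in both comparisons of neural with Schwann-like cells, and HoxD genes to the right in endothelial-like cells.

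Endothelial-like cells, which do not derive from the neural crest, had Hox genes of 3 clusters and almost no HoxC. Hoxd9 ranged from 0 to 322 CPM in the 10 mice with a median of 234 CPM, and Hoxd4 from 51.6 to 164 CPM with a median of 120 CPM. Hoxb7 ranged from 26.3 to 163 CPM with a median of 112 CPM, Hoxa7 from 0 to 131 CPM with a median of 79.0 CPM, and Hoxb9 from 0 to 124 CPM with a median of 62.9 CPM. Hoxd8 ranged from 0 to 186 CPM with a median of 62.9 CPM. Hoxd4 and Hoxb7 were detected in all 10 mice, and Hoxd9 in all but mouse 1, which had 13 endothelial-like cells with 16399 UMIs. All HoxC genes together had 4 UMIs among the 651768 of this class (6.14 CPM, exact Poisson 95% interval 1.67 to 15.7 CPM). Hoxd10, which acts at the lumbar level and in limbs, had 22 UMIs in endothelial-like cells of 9 mice and 0 UMIs in each other class of these mice, and ranged from 0 to 124 CPM with a median of 33.5 CPM.

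**Figure D5:**
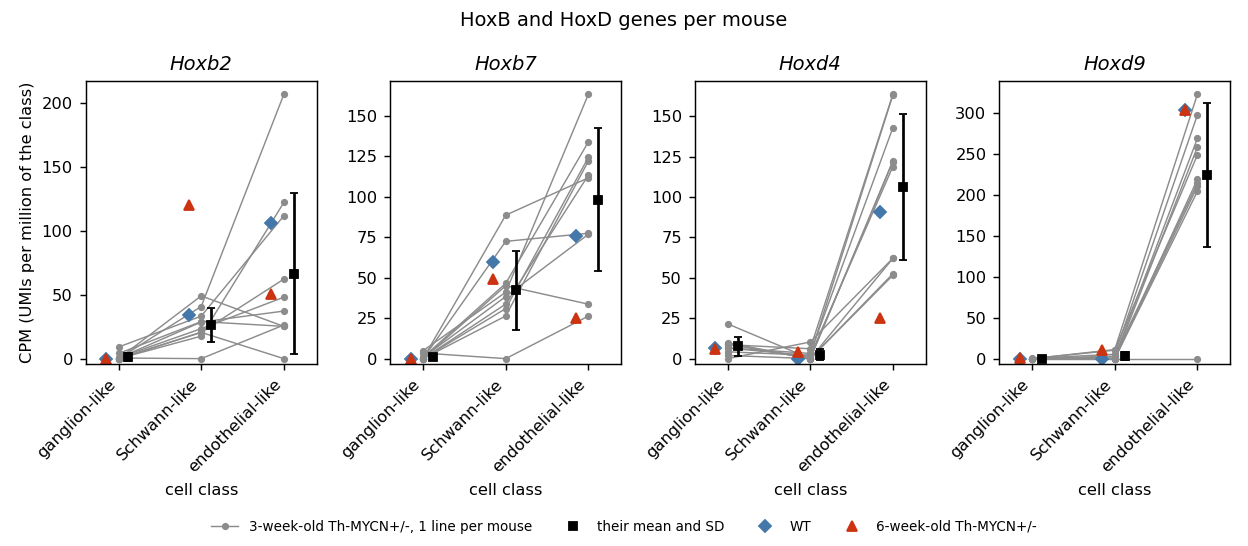
CPM of Hoxb2, Hoxb7, Hoxd4 and Hoxd9 in ganglion-like, Schwann-like and endothelial-like cells, drawn as in the plot of HoxC genes per mouse. Hoxd4 and Hoxd9 are near 0 in the first 2 classes and rise to medians of 120 and 234 CPM in endothelial-like cells, and the WT and 6-week-old values lie within the range of the grey points except, in the 6-week-old mouse, for Hoxb2 in Schwann-like cells, Hoxd9 in ganglion-like cells and Hoxb7 and Hoxd4 in endothelial-like cells.

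No member passed the filter in the comparisons of endothelial-like, myofibroblast-like or fibroblast-like with Schwann-like cells, so that these fits gave no Hox test. Without the filter, 26 members were tested in endothelial-like cells and 11 were called higher and 0 lower, where 8.55% of the 15984 genes tested were called higher. They were Hoxd3, Hoxd4, Hoxd8, Hoxd9, Hoxd10, Hoxa3, Hoxa5, Hoxa7, Hoxb6, Hoxb8 and Hoxb9. For this fit too, the share of all genes called lower is not given, and 0 lower is not read as a result. Hoxd9 was 52.0-fold higher (log2 fold change 5.70 ± 0.45, adjusted p = 2.11e-34, 9 of 10 mice) and Hoxd4 29.8-fold higher (4.90 ± 0.49, adjusted p = 9.06e-22, 10 of 10 mice, without overlap). Hoxd10 was at least 26.9-fold higher, with a floor of 3 counts over the Schwann-like cells. Hoxb9 was 16.9-fold higher (4.08 ± 0.54, adjusted p = 7.42e-13, 8 of 10 mice) and Hoxa7 5.94-fold higher (2.57 ± 0.43, adjusted p = 2.87e-08, 9 of 10 mice). Hoxb2, Hoxb4 and Hoxb7, the HoxB genes with most UMIs in Schwann-like cells, were not called, although their mean levels were higher in endothelial-like cells. The means were 66.4 against 26.3 CPM for Hoxb2 (higher in 7 of 10 mice) and 38.5 against 14.7 CPM for Hoxb4 (8 of 10 mice). For Hoxb7 they were 98.2 against 42.3 CPM (9 of 10 mice). In these unfiltered fits the median log2 fold change of all genes was −0.40 in endothelial-like, −1.15 in fibroblast-like and −1.02 in myofibroblast-like cells, and the changes are to be read relative to these shifts.

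In myofibroblast-like cells, cells of the vessel wall, 3 clusters contributed. HoxC gave 40.8%, HoxB 33.7% and HoxA 23.5% of their 98 Hox UMIs. Hoxb2 ranged from 0 to 367 CPM in 9 mice with a median of 145 CPM, and Hoxa7 from 0 to 271 CPM with a median of 145 CPM. Hoxc8 (11 UMIs) ranged from 0 to 391 CPM with a median of 93.3 CPM and Hoxc6 (11 UMIs) from 0 to 294 CPM with a median of 67.7 CPM. Without the filter, 23 members were tested against Schwann-like cells and 6 were called higher and 0 lower, where 2.85% of the 15339 genes tested were called higher. These were Hoxa7 (log2 fold change 2.89 ± 0.51, adjusted p = 7.1e-07, 8 of 9 mice), Hoxc8 (4.03 ± 0.75, adjusted p = 1.91e-06, 6 of 9 mice), Hoxc9, Hoxc6, Hoxc5 and Hoxb2. A share of all genes called lower is not given here either, and 0 lower is not read as a result. When cells had to hold at least 500 genes, with no more than 5% of UMIs from mitochondria, 5 mice were left and 1 member was called.

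Fibroblast-like cells, with 92 cells and 30 Hox UMIs in these mice, gave few UMIs per gene. HoxC gave 17 and HoxB 10 of these UMIs and HoxD none. Hoxc4 had 8 UMIs (101 CPM, Poisson interval 43.5 to 198 CPM), and Hoxb2, Hoxb7, Hoxc6 and Hoxc8 had 4 UMIs each (50.3 CPM, 13.7 to 129 CPM). Hoxc4 was the only 1 of 23 members tested without the filter that was called higher (log2 fold change 2.08 ± 0.68, adjusted p = 0.0216, 4 of 9 mice), where 2.07% of the 15038 genes tested were called higher. The call was lost when 10 cells per sum were required (adjusted p = 0.307).

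By paralog group, no class reached the tail end of the clusters. Groups 11 to 13 had 0 UMIs in every class, and group 10 had a level above 1 CPM only in endothelial-like cells (36.8 CPM). Group 1 stayed at or below 3.07 CPM in each class. Groups 2 and 3, which mark the hindbrain, were at 3.49 and 2.14 CPM in neuroblast-like and at 0.857 and 1.59 CPM in ganglion-like cells. They were at 31.8 and 4.61 CPM in Schwann-like cells, and higher still in 3 other classes. These were endothelial-like (56.8 and 30.7 CPM), myofibroblast-like (190 and 9.51 CPM) and fibroblast-like cells (50.3 and 12.6 CPM, from 4 and 1 UMIs). Group 4 was at 224 CPM in neuroblast-like and at 74.5 CPM in ganglion-like cells, and group 9 at 71.4 and 84.7 CPM. The levels by paralog group pool the mice, and mice 2 and 4 gave 2026457 and 2593990 of the 8166438 UMIs of ganglion-like cells. The mean of Hoxc4 alone over mice was 100 CPM in ganglion-like cells. Group 7, which has no HoxC member, was at 5.48 and 1.71 CPM in the neural classes, at 54.5 CPM in Schwann-like, 172 CPM in endothelial-like and 200 CPM in myofibroblast-like cells.

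Classes were made of several clusters of cells. In the 3 neuroblast-like clusters, Hoxc4 was at 228, 171 and 233 CPM, and in the 3 ganglion-like clusters at 62.6, 79.3 and 68.9 CPM. Mouse 2 gave 87.7% of the cells of the first of these ganglion-like clusters. Hoxd9 was at 10.2 to 10.9 CPM in the neuroblast-like clusters and at 0 to 0.199 CPM in the ganglion-like clusters. In Schwann-like cells, Hoxb7 was at 51.8 CPM in the largest cluster, at 29.4 CPM in the cluster led by immediate early genes and at 0 in a cluster of 15 cells. These values pool the cells of all Th-MYCN+/- mice aged 3 weeks and were not tested.

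Non-coding RNAs of the Hox clusters were read beside the members. Of 10 such genes, Hoxd3os1, antisense to Hoxd3 and Hoxd4, had 815 UMIs, Hoxb3os 193 and Hotairm1 79, and the other 7 between 0 and 16. Hoxd3os1 ranged from 14.7 to 86.1 CPM in ganglion-like cells (median 48.0 CPM) and from 0 to 28.9 CPM in neuroblast-like cells (median 16.7 CPM). It fell by 1.55 ± 0.28 on the log2 scale in neuroblast-like cells (adjusted p = 5.1e-05) and was lower in 10 of 10 mice, while Hoxd4 on the opposite strand was higher there without the filter. Hoxb3os ranged from 0 to 58.8 CPM in Schwann-like cells (median 44.1 CPM), against medians of 0.462 and 0.598 CPM in neuroblast-like and ganglion-like cells. Hotairm1, at the head end of HoxA, was at 11.7 CPM in Schwann-like, 35.3 CPM in endothelial-like and 76.1 CPM in myofibroblast-like cells and below 1 CPM in both neural classes. Hoxd3os1 was the only 1 of the 10 that passed the filter in any comparison.

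Cofactors of the TALE class, which bind DNA together with Hox proteins, were tested as the next layer of the pathway. Against ganglion-like cells, 4 of 9 passed the filter, of which 2 were higher and 1 lower in neuroblast-like cells, where 35.8% of all genes tested were higher and 32.4% lower. Their median log2 fold change was 0.71 (0.07 over all genes tested). Meis1 ranged from 74.8 to 138 CPM in neuroblast-like and from 19.6 to 90.6 CPM in ganglion-like cells (1.05 ± 0.19, adjusted p = 7.46e-05, 9 of 10 mice). Pknox1 was also higher (1.81 ± 0.30, adjusted p = 1.77e-05, 9 of 10 mice), whereas Meis3 was lower in 10 of 10 mice (−0.68 ± 0.17, adjusted p = 0.00122). Against Schwann-like cells, 4 passed the filter and Meis1 (3.63 ± 0.29, adjusted p = 1.02e-09, 10 of 10 mice) and Pknox1 (1.47 ± 0.27, adjusted p = 9.98e-05, 9 of 10 mice) were higher in neuroblast-like cells, where 36.7% of all genes tested were higher and 33% lower, with a median of 0.79 (0.06 over all genes tested). Meis1 reached at most 17.6 CPM in Schwann-like cells. In ganglion-like against Schwann-like cells, Meis3 was the only cofactor tested and was higher (0.87 ± 0.24, adjusted p = 0.00225, 9 of 10 mice), where 35.5% of all genes tested were higher and 33.3% lower.

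Of 13 regulators of Hox clusters, 4 passed the filter in both comparisons of neuroblast-like cells, and none did in the comparisons of the other classes. The CTCF gene Ctcf, whose product bounds active and silent parts of the clusters, was higher than in ganglion-like cells (2.23 ± 0.27, adjusted p = 3.36e-07, 9 of 10 mice), as was the H3K27 demethylase gene Kdm6b (0.95 ± 0.28, adjusted p = 0.00605, 8 of 10 mice), with a list median of 0.54 (background 35.8% higher). Kmt2a (0.06 ± 0.25, adjusted p = 0.846) and Men1 (0.13 ± 0.23, adjusted p = 0.64), which maintain Hox transcription, did not pass. Against Schwann-like cells, Kdm6b was lower (−0.71 ± 0.31, adjusted p = 0.0494), but in only 5 of 10 mice, and it was higher in 4. The other 3 did not pass, with a list median of 0.14 (background 33% lower).

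Genes that flank the clusters gave a reference for the surrounding chromosome. Of 13, 5 passed the filter against ganglion-like cells and 2 were higher (Mtx2 and Lnpk, next to HoxD) and 2 lower (Snx11 and Hibadh) in neuroblast-like cells, with a median of 0.32 and the background of 35.8% and 32.4% given above. Against Schwann-like cells, 4 passed, of which Mtx2 and Lnpk were higher and Hibadh lower in neuroblast-like cells (background 36.7% and 33%), with a median of 0.73. In ganglion-like cells, 3 were tested, and Mtx2 was higher (0.78 ± 0.20, adjusted p = 0.00124) and Hibadh lower (−1.11 ± 0.23, adjusted p = 0.0001), with a median of −0.26 (background 35.5% and 33.3%). Hibadh was also lower in endothelial-like cells (−1.05 ± 0.26, adjusted p = 0.0014), where 27% of the 1658 genes tested were lower, and its difference did not pass in myofibroblast-like cells (−0.51 ± 0.40, adjusted p = 0.32). Cbx5, next to HoxC, did not pass in any of the 3 comparisons in which it was tested (log2 fold changes from −0.26 to 0.32). Of 12 positional factors outside the clusters, Nr2f2 was the only one tested, and it was lower in neuroblast-like than in Schwann-like cells (−2.76 ± 0.26, adjusted p = 2.37e-08), with 0 to 46.1 CPM against 0 to 133 CPM.

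In the WT mouse, ganglion-like cells carried the same HoxC genes. Hoxc8 was at 183 CPM (56 UMIs, Poisson interval 138 to 238 CPM), Hoxc4 at 141 CPM (43 UMIs, 102 to 189 CPM), Hoxc9 at 65.4 CPM (20 UMIs, 39.9 to 101 CPM) and Hoxc6 at 36.0 CPM (11 UMIs, 18.0 to 64.3 CPM). Each lay within the range of the 10 Th-MYCN+/- mice of this age. HoxC gave 91.0% of 145 Hox UMIs in its ganglion-like cells, and HoxB 79.1% of 43 in its Schwann-like cells. The share of HoxD was 49.2% of 65 in its endothelial-like cells, where HoxC had 0 UMIs. Of the 13 members with at least 100 UMIs, 12 in ganglion-like, 13 in Schwann-like and 13 in endothelial-like cells lay within the range of the Th-MYCN+/- mice. The exception in ganglion-like cells was Hoxa7 with 4 UMIs (13.1 CPM against at most 0.771 CPM). The 35 neuroblast-like cells of the WT mouse held 13106 UMIs and 0 Hox UMIs, which allows a level of up to 229 CPM for a gene or for the sum of the HoxC genes. In neuroblast-like cells of the Th-MYCN+/- mice of this age, that sum lay between 230 and 651 CPM. The 230 CPM was that of mouse 2, whose 21720 UMIs held 4 of Hoxc4 and 0 of Hoxc8, so that it rests on few UMIs. Of the 13 members, 11 at 0 were within the range of these mice and 2 were not, Hoxc4 and Hoxc9, whose lowest levels were 68.4 and 32.8 CPM. The limit of 229 CPM lies above both of these levels, so that 0 UMIs at this depth shows no difference. With 1 WT mouse, a difference could not be tested either.

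In the 6-week-old mouse, all 13 of these members lay within the range of the younger mice in neuroblast-like cells. Hoxc4 was at 163 CPM (298 UMIs, 145 to 183 CPM), Hoxc8 at 71.3 CPM (130 UMIs), Hoxc9 at 48.8 CPM (89 UMIs) and Hoxc6 at 37.3 CPM (68 UMIs). Among sparser members, Hoxa5 stood apart with 18 UMIs in neuroblast-like cells (9.87 CPM, 5.85 to 15.6 CPM), where the younger mice reached at most 0.870 CPM, which was noticed after its value was seen. In Schwann-like cells, 11 of the 13 lay within the range. The exceptions were Hoxb2 at 120 CPM (59 UMIs, 91.5 to 155 CPM) against at most 49.0 CPM in the younger mice, and Hoxb4 at 28.5 CPM (14 UMIs, 15.6 to 47.9 CPM) against at most 27.6 CPM. In ganglion-like cells, 11 of the 13 lay within the range of the younger mice. The exceptions were Hoxa7 (2 UMIs, 1.39 CPM against at most 0.771 CPM) and Hoxd9 (1 UMI, 0.696 CPM against at most 0.386 CPM). In endothelial-like cells, 11 did, and the exceptions were Hoxb7 and Hoxd4 with 1 UMI each, or 25.3 CPM against at least 26.3 and 51.6 CPM. HoxC gave 94.2% of 638 Hox UMIs in neuroblast-like and 94.9% of 584 in ganglion-like cells, HoxB 74.0% of 154 in Schwann-like and HoxD 50% of 34 in endothelial-like cells. With 1 mouse, age, tumor and animal cannot be told apart.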

How the data were processed

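Cells of dissociated SMG were captured in droplets (10x Chromium) and sequenced by the authors. The deposited matrices hold raw UMI counts per gene and barcode, which the authors made with Cell Ranger 3.0.2. The annotation release and the use of strand are not given in the sources used here. Cells were called by a test against barcodes with at most 100 UMIs (FDR 0.01) and kept with at least 200 genes, at most 10% mitochondrial and at most 60% ribosomal UMIs. SCTransform (sctransform 0.4.2) and Louvain clustering at resolution 0.5 (Seurat 5.3.0) left out the Hox genes, their non-coding RNAs and the transgene. A cluster took the name of a class when at least 50% and at least 3 of its markers were detected in 10% of cells and 1.5-fold enriched, a rule set after the clusters were seen. Scrublet marked 50 cells (0.418%), which were kept. How many doublets it missed was not tested.

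Counts were summed per mouse and class with at least 5 cells and tested over all genes with edgeR 4.0.16 (TMM, quasi-likelihood test, mouse as a block, filterByExpr, Benjamini-Hochberg FDR 0.05). Classes of a mouse come from the same library, so the pairing is by animal. Deviations from the class means correlated within mice by −0.01 to 0.33 between neuroblast-like and ganglion-like cells (positive in 9 of 10 mice) and were positive in every mouse in the other comparisons. The SE given with edgeR results is the absolute log2 fold change divided by the square root of the F statistic of the test. Because few Hox genes passed the filter, the fit without it is given beside it. DESeq2 1.42.0, other cell filters and other clusterings were alternatives. Test scripts were tested on simulated data. In the fits with the low-count filter, p-values measure the spread between these mice. Without the filter, p-values followed the normal tail of the log2 fold change over its SE. They thus rest on a spread shared over genes and not on that of the single gene between mice. A call could then rest on 2 UMIs in 1 mouse, as for Hoxb6. Intervals cover counting error only, at 95%. The members, gene lists and comparisons were chosen with earlier results of these data known. Members with at least 100 UMIs were described one by one, and others where they were called or stood apart. The values of 1 gene of the lists are not reported here.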

Additional observations from a re-analysis of the deposited data

Results flagged for a closer look

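Hoxd9 in endothelial-like cells was at 0 CPM in mouse 1, the lowest of 10 mice, where the next mouse was at 204 CPM. Mouse 1 had only 13 endothelial-like cells with 16399 UMIs. At this depth, a gene at 204 CPM would give few UMIs, so that the value of 0 lies at the counting floor. Hoxd9 in neuroblast-like cells was at 35.6 CPM in mouse 3, the highest of 10 mice, where the next was at 14.9 CPM. Both gaps exceed Dixon's 95% critical value for 10 samples. Of 14 groups looked at, chance flags about 1 in 20.

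HoxC genes were also found in cells that no comparison used. They were at 387 CPM in unnamed cluster 2 (exact Poisson 95% interval 350 to 427 CPM), at 388 CPM in unnamed cluster 6 (348 to 430 CPM) and at 270 CPM in unnamed cluster 14 (140 to 472 CPM), above the limits that 3 counts set there (2.90, 3.31 and 67.5 CPM). RNA in droplets without a cell held HoxC at 273 CPM, which lies within the interval of cluster 14 and below those of clusters 2 and 6. The part of this free RNA in these values was not tested. Hoxc4 was at 173, 179 and 67.5 CPM in the same clusters.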

How the results depend on the processing

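Of 132 alternative counts of called Hox genes, 114 stayed within 1.5 times the reported count and 18 did not, and no single-gene result reversed its direction in 599 recalculations, of which 20 lost the call. Without the filter on low counts, 8 members were called between neuroblast-like and ganglion-like cells (3 with it), 17 between neuroblast-like and Schwann-like (3), 16 between ganglion-like and Schwann-like (2), 1 in fibroblast-like (0), 11 in endothelial-like (0) and 6 in myofibroblast-like cells (0). With a stricter filter on cells (500 genes, 5% mitochondrial UMIs), 5 were called between neuroblast-like and Schwann-like and 1 between ganglion-like and Schwann-like cells. With at least 10 cells per sum, or without mouse 2, 5 members were called between neuroblast-like and Schwann-like cells. With barcodes of at least 500 UMIs as cells, it was 1 between ganglion-like and Schwann-like cells. In 1 fit over all classes, it was 1 in fibroblast-like and 2 in endothelial-like cells. Of the counts without the filter, that of fibroblast-like cells was 0 with barcodes of at least 500 UMIs, 0 with the stricter cell filter and 0 with at least 10 cells per sum, and that of myofibroblast-like cells was 1 with the stricter cell filter. The cause of these shifts was not tested, except that the low-count filter decides how many members are tested.

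Without the mouse as a replicate block, 3, 3 and 2 members were called in the comparisons of the neural classes with the filter, as with the block. Without block and filter, the counts were 8, 18, 20, 2, 13 and 6 in the order of comparisons given above, so that the pairing moved only that of fibroblast-like cells by over 1.5 times. The alternatives without the low-count filter were chosen after seeing the data. Shares of all genes called are not given for the alternative counts, which describe the processing and not the members. Fibroblast-like and myofibroblast-like sums held 79458 and 105146 UMIs, a depth that limits their values.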
